A study of Homo sapiens with 3 samples.

Results

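The human mitochondrial genome carries 37 genes, and all of them were found among the 61193 genes to which the transcripts of the count tables could be assigned. They were chosen as the genes on chromosome M whose symbol starts with MT-, and each was represented by 1 transcript. They comprise 2 rRNA genes, 13 mRNA genes and 22 tRNA genes. RNA was measured in HEK293T cells, an established cell line of human embryonic kidney origin into which the SV40 large T antigen was introduced, in 3 replicates of a single condition. The labels name no genotype, drug or other treatment beyond plating the cells in flasks and collecting them a day later, so the data describe levels and their spread and hold no comparison between conditions. The identity of the cells as HEK293T was taken from the labels and the methods of the study and was not checked with marker genes. The sample labels call the material genomic DNA, whereas the protocol describes purified total RNA and a QuantSeq 3′ mRNA-seq kit, which primes on stretches of A and reads near the 3′ end of each RNA.

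Mitochondrial DNA is a small circle that is copied into long RNAs from both of its strands, called heavy and light. The tRNA genes lie between most of the other genes, and their excision releases the rRNAs and mRNAs, a scheme known as tRNA punctuation. The mRNAs encode subunits of respiratory complexes I, III and IV and of the ATP synthase, also called complex V, and most of them receive a short poly(A) tail. The mature tRNAs receive CCA at their 3′ ends and the rRNAs carry short A tails.

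The libraries held 6262175 to 8521624 counts. Counts on nuclear genes varied little, between 5905072 and 6345891. Mitochondrial counts were 673362 in replicate 1, 357103 in replicate 2 and 2201650 in replicate 3. Replicate 3 therefore stood apart through its mitochondrial counts, while its nuclear total of 6319974 lay between those of the others. To follow single genes between replicates, counts were scaled to 1000000 nuclear counts of the same replicate. A count of 0 allows up to 3 counts, which is 0.473, 0.508 and 0.475 per 1000000 nuclear counts in replicates 1, 2 and 3, for counting error only.

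On the genome of 16569 bases (hg38, chromosome M), 28 genes are read from the heavy strand and 9 from the light strand. Of the 37 junctions between neighbouring genes, 20 have no base between them and 5 are overlaps, so a read that crosses a junction touches a pair of genes. How such reads were counted, and whether strand was used, is not given in the sources used here. Without strand, reads from a gene and from RNA of the opposite strand cannot be told apart. Counts along this map ran from none for some tRNA genes to 413787 for MT-RNR2 in replicate 3.

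**Figure D1:**
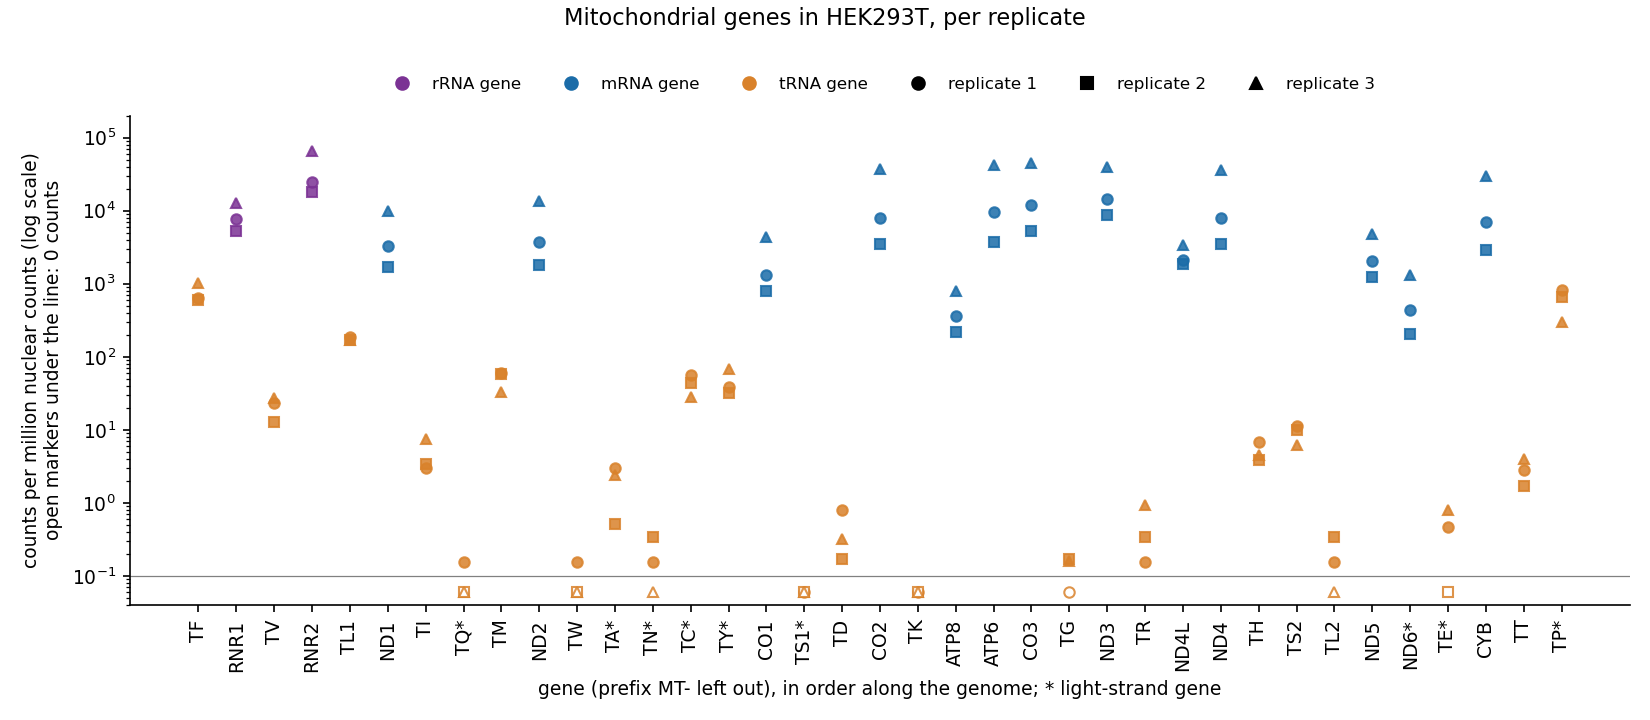
Counts per 1000000 nuclear counts (y axis, log scale) of the 37 mitochondrial genes in their order along the genome (x axis), with 1 marker per replicate, colours for the gene class and asterisks for light-strand genes. The rRNA and mRNA genes sit between 202 and 65473 and have replicate 3 on top, whereas the tRNA genes spread from 0 to 1034.

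By class, mRNA genes took most of the counts. Their 13 genes held 67.7%, 58.7% and 77.0% of the mitochondrial counts in replicates 1, 2 and 3, or 67.8% ± 9.17 (SD, n = 3). The 2 rRNA genes held 30.6%, 38.7% and 22.5%, or 30.6% ± 8.10 (SD, n = 3). The 22 tRNA genes held 1.74%, 2.63% and 0.484%, or 1.62% ± 1.08 (SD, n = 3). The order of the classes was the same in every replicate, and replicate 3 had the highest mRNA share and the lowest shares of the other classes. Per length, in TPM (the count divided by transcript length and rescaled to 1000000 per library), the short tRNA genes weighed more, with 16.3%, 22.8% and 5.13% of the mitochondrial TPM.

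The classes did not move together between replicates. Per 1000000 nuclear counts, the mRNA genes summed to 71804, 35496 and 268390, a ratio of 7.56 between the highest and the lowest replicate. The rRNA genes summed to 32457, 23390 and 78289, a ratio of 3.35. The tRNA genes summed to 1849, 1588 and 1685, a ratio of 1.16. Thus the rise of mitochondrial counts in replicate 3 lay in mRNA and rRNA genes, while the summed counts on tRNA genes stayed within the range of the other replicates. In RNA of whole cultures, a change in the number of cells that hold an RNA and a change in its amount per cell cannot be told apart.

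**Figure D2:**
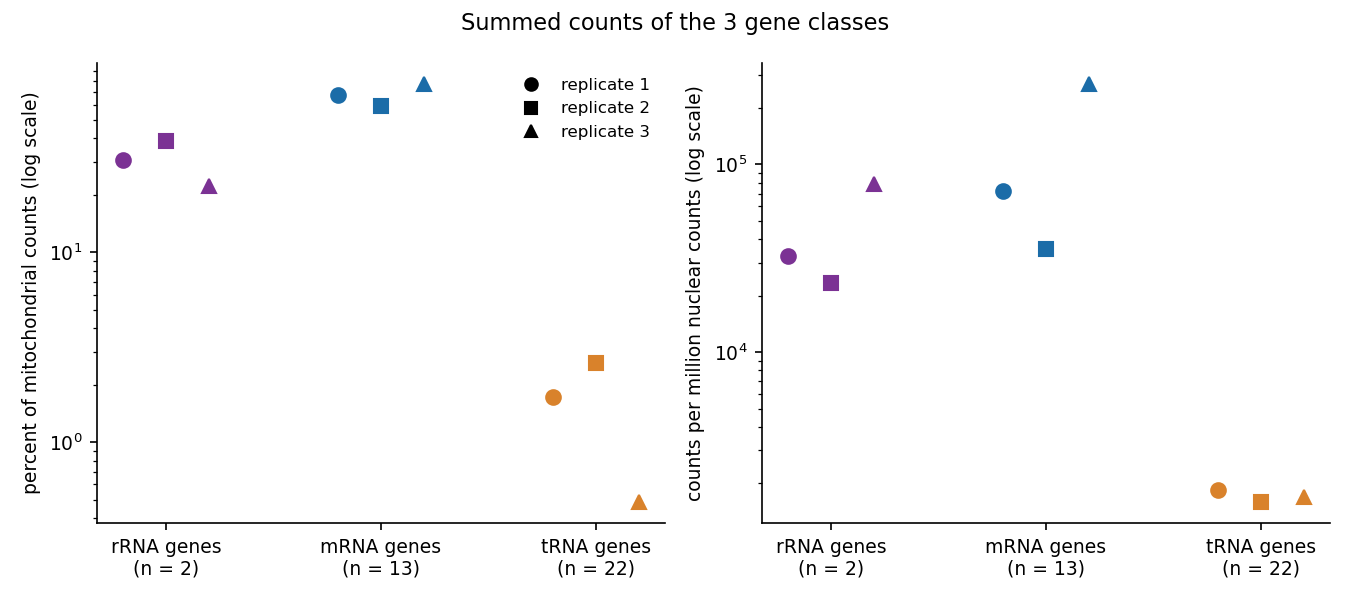
Summed counts of the rRNA, mRNA and tRNA genes as percent of the mitochondrial counts (left, log scale) and per 1000000 nuclear counts (right, log scale), with 1 marker per replicate. The mRNA sum spans 35496 to 268390 per 1000000 nuclear counts, the tRNA sum only 1588 to 1849.

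The rRNAs form the core of the mitochondrial ribosome. MT-RNR2 (ENSG00000210082, chrM:1671-3229), the rRNA of the large subunit, had the highest mean count of all members, with 157299, 106915 and 413787 counts. It held 23.4%, 29.9% and 18.8% of the mitochondrial counts. MT-RNR1 (ENSG00000211459, chrM:648-1601), the rRNA of the small subunit, had 48668, 31203 and 80999 counts. Per length, MT-RNR1 stood below MT-RNR2 in every replicate, with TPM ratios of 0.506, 0.477 and 0.320. Both are cut from the same heavy-strand RNA and lie on either side of MT-TV, the tRNA gene for valine. MT-TV had 147, 76 and 171 counts and a TPM of 469, 287 and 372, below the TPM of both neighbours in every replicate.

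Among the mRNA genes, MT-ND3 (ENSG00000198840, chrM:10059-10404), a small membrane subunit of complex I, led per length in every replicate. Its TPM was 57526, 38439 and 107405, with 90318, 50991 and 247851 counts behind these values. It stood above all other members on this scale and ranked 1, 2 and 1 among all genes. Each member has 1 listed transcript while many nuclear genes have several, and if reads on several transcripts were dropped, nuclear genes would be undercounted in this rank and in every share of all counts. MT-ATP6 (ENSG00000198899, chrM:8527-9207), the proton channel subunit of the ATP synthase, had a TPM of 19544, 8395 and 59532. MT-CO3 (ENSG00000198938, chrM:9207-9990), a core subunit of complex IV, had 21197, 10414 and 54562 TPM. MT-CO2 (ENSG00000198712, chrM:7586-8269), which takes electrons from cytochrome c in complex IV, had 16090, 7861 and 52076 TPM. These followed MT-ND3 in mean TPM, with MT-RNR2 among them at 22235, 17887 and 39796 TPM. Their order changed from replicate to replicate, as MT-CO3 lay above MT-ATP6 in replicates 1 and 2 and below it in replicate 3.

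Among the mRNA genes, next came MT-CYB, the mitochondrial subunit of complex III, and MT-ND4, a proton-pumping subunit of complex I. MT-CYB had 44050, 17337 and 189650 counts and a TPM of 12464 ± 11025 (SD, n = 3). MT-ND4 had 51082, 20915 and 225372 counts and a TPM of 12217 ± 10863 (SD, n = 3). Despite their wide spread these genes kept nearly the same TPM within each replicate, with MT-CYB 1.04, 1.00 and 1.02 times MT-ND4. MT-CO2 was 1.89, 1.98 and 2.09 times MT-CYB in TPM, so this step in the order was larger than its variation between replicates.

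MT-ND4L (ENSG00000212907, chrM:10470-10766), a small complex I subunit, behaved unlike the other mRNA genes between replicates. Its counts were 13206, 11110 and 21601, and its TPM was 10154 ± 651 (SD, n = 3). The TPM total includes the mitochondrial genes, which made up 22.8%, 15.4% and 44.2% of it in replicates 1, 2 and 3. The rise in replicate 3 is therefore damped in TPM. Scaled to nuclear counts, MT-ND4L was at 2081, 1881 and 3418, with an SD of 34.0% of its mean, still the lowest of the mRNA genes. It lies on the same RNA as MT-ND4, overlapping it by 7 bases, yet the TPM ratio of MT-ND4L to MT-ND4 was 1.20, 2.46 and 0.445. In TPM, MT-ND4L thus lay above its partner in replicates 1 and 2 and below it in replicate 3. In counts, which are not divided by length, MT-ND4L lay below MT-ND4 in every replicate, at 0.259, 0.531 and 0.0958 times. The other bicistronic RNA joins MT-ATP8, a small ATP synthase subunit, to MT-ATP6, with an overlap of 46 bases or 22.2% of MT-ATP8. MT-ATP8 had 2278, 1271 and 5029 counts, and its TPM was 0.124, 0.191 and 0.0612 times that of MT-ATP6. In both pairs the upstream gene was lowest relative to its partner in replicate 3 and highest in replicate 2. Counts cannot tell a read that ends in the overlap from a read of either gene alone. The kit reads near the 3′ end of an RNA, which on both shared RNAs lies in the downstream gene. The ratios are thus not relative amounts of separate RNAs, and in TPM they also depend on the division by length.

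The remaining mRNA genes had a lower mean TPM than MT-ND4L, although MT-ND2 and MT-ND1 stood above MT-ATP8. In replicate 3 MT-ND2, at 12264 TPM, was also above MT-ND4L, at 10905. MT-ND2, a complex I subunit, had 24013, 10823 and 85226 counts and a TPM of 6684 ± 4975 (SD, n = 3). MT-ND1, the complex I subunit next to the quinone site, had 20634, 10129 and 62647 counts and a TPM of 5782 ± 3641 (SD, n = 3). MT-ND5, the longest of the mRNA genes at 1812 bases, had 13200, 7358 and 29922 counts and a TPM of 1714 ± 715 (SD, n = 3). MT-CO1, the catalytic subunit of complex IV, had 8373, 4644 and 27317 counts and a TPM of 1546 ± 983 (SD, n = 3). The low rank of MT-CO1 beside MT-CO2 and MT-CO3 held in each replicate, although the products are subunits of the same complex.

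MT-ND6 is the single mRNA gene of the light strand and encodes another complex I subunit. It had 2764, 1194 and 8349 counts and a TPM of 1379 ± 915 (SD, n = 3), the lowest mean TPM of the mRNA genes. Its 3′ end abuts that of MT-ND5, which is read in the opposite direction, and the TPM of MT-ND5 was 1.38, 1.79 and 1.04 times that of MT-ND6. Since the strand setting is not given, reads of heavy-strand RNA running past MT-ND5 would not be separable from MT-ND6 in an unstranded count.

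**Figure D3:**
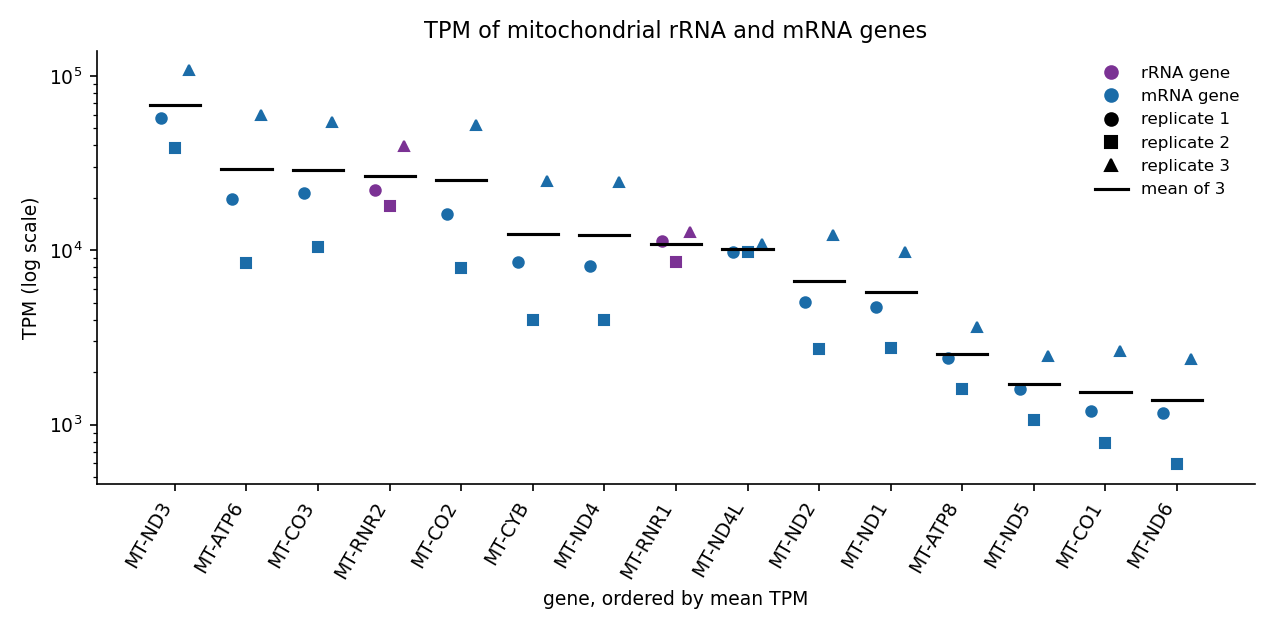
TPM (log scale) of the 2 rRNA and 13 mRNA genes in the 3 replicates, ordered by mean TPM, with a bar at each mean. MT-ND3 leads in all replicates, and MT-ND4L at 10154 ± 651 has the tightest TPM of the mRNA genes. The TPM total includes the mitochondrial genes, so the rise in replicate 3 is damped here. Scaled to nuclear counts, MT-ND4L was at 2081, 1881 and 3418 in replicates 1, 2 and 3.

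By complex, the 7 complex I genes held 56.1%, 64.2% and 46.2% of the mRNA TPM. The 3 complex IV genes held 24.5%, 20.7% and 29.8%, the 2 ATP synthase genes 14.0% ± 3.19 and MT-CYB 5.50% ± 1.25 (SD, n = 3). Complex I, with 7 of the 13 genes, had the largest share in every replicate. Most of the complex I TPM was that of MT-ND3 alone, at 57526, 38439 and 107405. Per gene, the mean TPM of complex I was 12585, 8469 and 24255, against 12828, 6354 and 36431 for complex IV. On this scale complex IV was thus higher per gene in replicates 1 and 3. In 3′ libraries the division by length raises short genes such as MT-ND3, at 346 bases, relative to long ones. Of the mRNA counts, the 7 complex I genes held 47.2%, 53.7% and 40.1%, and the 3 complex IV genes 29.3%, 27.0% and 32.4%. By counts, complex IV was therefore higher per gene in every replicate. The share of complex I was smallest where those of the other complexes were largest, in replicate 3. Place and length were described by Spearman coefficients, with no test. Across the 12 heavy-strand mRNA genes, the coefficient of TPM with order along the genome was 0.224, 0.273 and 0.140. With gene length, over the 13 genes, it was -0.324, -0.368 and -0.209 for TPM, which is itself divided by length. For counts it was 0.0165, -0.0714 and 0.137, and the genes share their libraries and are not independent replicates. Between replicates, the mRNA counts themselves kept their order, with coefficients from 0.918 to 0.978.

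Several mRNA genes end without a full stop codon, which the poly(A) tail completes to UAA. Since the tail is also where priming starts, the last 30 bases of the 6 such genes are shown, as DNA of the sense strand from 5′ to 3′ (hg38), with the encoded part of the stop codon in capitals. All are heavy-strand genes, and these stretches end at the last base of each gene.
MT-ND1 (chrM:4233-4262): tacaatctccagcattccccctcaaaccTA
MT-ND2 (chrM:5482-5511): ctatctccccttttatactaataatcttaT
MT-CO3 (chrM:9961-9990): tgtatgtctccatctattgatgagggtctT
MT-ND3 (chrM:10375-10404): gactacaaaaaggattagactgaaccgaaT
MT-ND4 (chrM:12108-12137): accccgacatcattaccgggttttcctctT
MT-CYB (chrM:15858-15887): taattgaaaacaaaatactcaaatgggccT

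MT-ATP6, by contrast, encodes a whole stop codon and overlaps the first base of MT-CO3.
MT-ATP6 (chrM:9178-9207): gtaagcctctacctgcacgacaacacaTAA
The median TPM of the 6 genes without a full stop codon was 8339, 3961 and 24722, and that of the other 7 genes was 2425, 1602 and 3643. The groups overlapped widely, since mean TPM ran from 5782 to 67790 in the former and from 1379 to 29157 in the latter.

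A run of A inside an RNA can also take an oligo(dT) primer, so runs of AAAAAA were searched in the sense sequence of each gene. They were found in 9 of the 37 members, namely 6 mRNA genes, both rRNA genes and MT-TG, and overlapping matches were joined to 1 run. MT-RNR2 held 4 runs. In the last 200 bases, 2 of the 13 mRNA genes held a run, MT-ND1 and MT-ATP8, against 12.7% of all windows of 200 bases on both strands of the mitochondrial genome, 20.6% of windows with the sense of heavy-strand genes and 4.71% with that of light-strand genes. The mRNA genes with a run anywhere had a mean TPM of 1546 to 12217 and those without one 1379 to 67790. The 7 mRNA genes without such a run were MT-ND3, MT-ATP6, MT-CO3, MT-CO2, MT-CYB, MT-ND4L and MT-ND6, the last with the lowest mean TPM. MT-ND4 held 2 runs at a mean TPM of 12217, near that of MT-CYB at 12464.

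Of the 22 tRNA genes, between 59 and 75 bases long, 14 had counts in every replicate, 7 reached a mean of 100 counts and 10 stayed under a mean of 10. The study used reads of 75 bases, so an untrimmed read fills or exceeds any of these genes. Whether their counts came from mature tRNA or from longer RNA was not tested. Highest in counts were MT-TF and MT-TP, the tRNA genes for phenylalanine and proline. They flank the noncoding control region of 1122 bases, and each is the gene nearest to that region on its own strand. MT-TF (ENSG00000210049, chrM:577-647, heavy strand) had 4088, 3567 and 6532 counts and a TPM of 12689, 13104 and 13794. MT-TP (ENSG00000210196, chrM:15956-16023, light strand) had 5135, 3836 and 1870 counts and a TPM of 16642, 14714 and 4123. These diverged between replicates, as MT-TP lay above MT-TF in TPM in replicates 1 and 2, by ratios of 1.31 and 1.12, and far below it in replicate 3, at 0.299. Both face the control region with their 5′ ends. On the TPM scale MT-TF was close to MT-RNR1, the rRNA gene that starts at its next base, with ratios of 1.13, 1.54 and 1.08. In counts, which are not divided by length, MT-TF was far below MT-RNR1, at 0.0840, 0.114 and 0.0806 times. The closeness thus rests on the division by length.

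At the other end, MT-TK, for lysine, and MT-TS1, for a serine tRNA, had 0 counts in all replicates. The sequences of the tRNA genes with the highest counts and of those with 0 counts are given whole (hg38, 5′ to 3′ in the sense of the gene). The last 3 bases are in capitals, since CCA is joined after the encoded end. Of all tRNA genes, 1 encodes CCA as its last bases, MT-TY.
MT-TF (chrM:577-647): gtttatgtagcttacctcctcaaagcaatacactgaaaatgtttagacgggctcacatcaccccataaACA
MT-TP (chrM:15956-16023): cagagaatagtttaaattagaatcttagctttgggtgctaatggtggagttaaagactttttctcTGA
MT-TK (chrM:8295-8364): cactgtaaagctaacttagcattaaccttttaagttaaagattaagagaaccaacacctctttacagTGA
MT-TS1 (chrM:7446-7514): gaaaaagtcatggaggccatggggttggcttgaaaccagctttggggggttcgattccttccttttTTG

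MT-TL1, for a leucine tRNA, lies directly after MT-RNR2 and came next among the tRNA genes in mean TPM, with 1201, 992 and 1086 counts and a TPM of 3050 ± 762 (SD, n = 3). MT-TM, for methionine, had 385, 340 and 206 counts. MT-TC, for cysteine, had 352, 256 and 178 counts, and MT-TY, for tyrosine, had 242, 187 and 436. MT-TC and MT-TY are light-strand neighbours that share 1 base, and they went opposite ways in replicate 3, where MT-TC was at its lowest and MT-TY at its highest. The other 15 tRNA genes had a mean of at most 56.3 counts, led by MT-TS2 with 71, 59 and 39, MT-TH with 43, 23 and 29 and MT-TI with 19, 20 and 48. In 7 of them, with MT-TS1, MT-TK, MT-TQ, MT-TW and MT-TG as the lowest, no replicate exceeded 3 counts, so no fold is given for them.

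Place on the genome was described for the tRNA genes because the others are cut out at their borders. The 8 tRNA genes that start directly after an mRNA or rRNA gene of the same strand held 12.2%, 12.0% and 12.8% of the tRNA counts, or 12.3% ± 0.439 (SD, n = 3). Most of that came from MT-TL1, as these 8 genes summed to 1430, 1124 and 1366 counts. The 6 tRNA genes with a gap of more than 10 bases on a side, MT-TF, MT-TP, MT-TC, MT-TY, MT-TN and MT-TK, held 83.7%, 83.7% and 84.7% of the tRNA counts. These shares hardly differed between replicates, but they rested on MT-TF and MT-TP, and the same group held both MT-TK at 0 and MT-TN with at most 2 counts. Without MT-TF and MT-TP, the other 20 tRNA genes summed to 2510, 1974 and 2247 counts.

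Light-strand genes took 1.26%, 1.53% and 0.493% of the mitochondrial counts, or 1.10% ± 0.540 (SD, n = 3), and 7.21% ± 4.83 of the mitochondrial TPM. Their 8 tRNA genes had 5753, 4284 and 2504 counts, against 5980, 5093 and 8145 for the 14 tRNA genes of the heavy strand. The light-strand tRNA sum was lowest in replicate 3 and the heavy-strand sum highest. Without MT-TP, the light-strand tRNA genes summed to 618, 448 and 634 counts, so the drop in replicate 3 was that of MT-TP. MT-ND6, of the same strand, was highest in replicate 3 like all other mRNA genes.

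The spread between replicates was then described gene by gene, as the highest divided by the lowest of the 3 values per 1000000 nuclear counts. This was done for the 22 members with a mean of at least 100 counts, which are 2 rRNA, 13 mRNA and 7 tRNA genes. The ratio exceeded 2 in 17 of these 22, against 7.02% of the 4843 nuclear genes with the same minimum. Their median ratio was 3.75, and that of the nuclear genes was 1.28. It exceeded 2 in both rRNA genes, 12 of the 13 mRNA genes and 3 of the 7 tRNA genes. Replicate 3 set much of this, since 7 of the 22 exceeded 2 between replicates 1 and 2 alone. The share of nuclear genes is not given for replicates 1 and 2 alone. The cause of the difference between replicates was not tested.

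Among the mRNA genes the ratio was 11.5 for MT-ATP6, 10.8 for MT-CO2, 10.2 for MT-CYB, 10.1 for MT-ND4 and 8.52 for MT-CO3. It was lower for MT-ND3 at 4.54, MT-ND5 at 3.80 and MT-ATP8 at 3.70, and lowest for MT-ND4L at 1.82. All 13 mRNA genes were highest in replicate 3 and lowest in replicate 2, so they differed in the size of the change and not in its order. The genes with ratios over 8 were the 5 that followed MT-ND3 in mean TPM among the mRNA genes. Mean TPM weighs replicate 3 most, which is also the highest replicate in these ratios, so this match is partly built in. In replicates 1 and 2, MT-ND4L, at 9799 and 9757 TPM, stood above MT-CYB, at 8508 and 3963, and MT-ND4, at 8169 and 3959. For the rRNA genes the ratio was 3.62 for MT-RNR2 and 2.43 for MT-RNR1.

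The tRNA genes had a median ratio of 1.97 and no common order of the replicates. MT-TL1 had the lowest ratio of the 22 members, 1.13. MT-TF, MT-TY and MT-TV were highest in replicate 3, while MT-TL1, MT-TM, MT-TC and MT-TP were highest in replicate 1. For MT-TM, MT-TC and MT-TP replicate 3 was the lowest, with ratios of 1.86, 1.97 and 2.73. When mitochondrial counts replaced nuclear counts as the divisor, 10 of the 22 exceeded 2, with no nuclear share given on that scale. These were all 7 tRNA genes, with a median ratio of 5.63, and MT-RNR1, MT-ATP6 and MT-ND4L. On that scale MT-CO1 took 1.24%, 1.30% and 1.24% of the mitochondrial counts and MT-ND1 3.06%, 2.84% and 2.85%, so these mRNA genes kept a nearly constant share while the total rose.

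**Figure D4:**
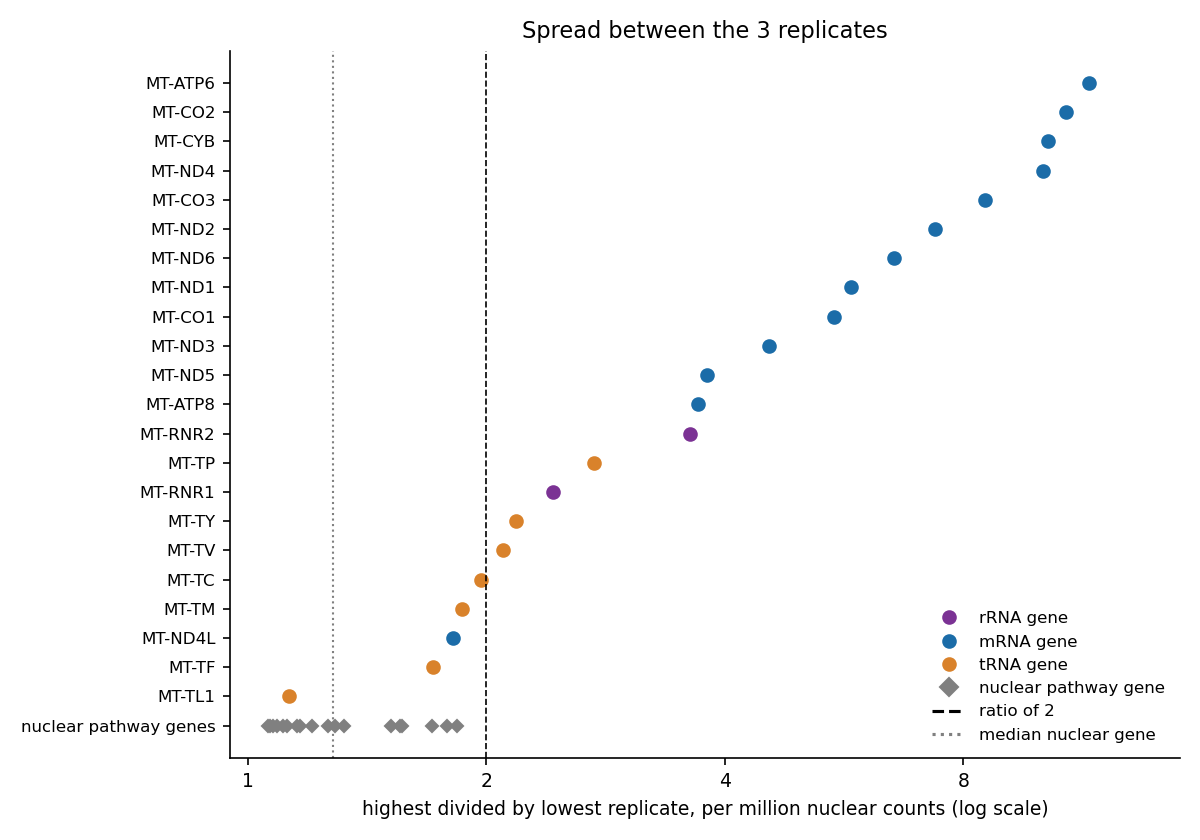
Highest divided by lowest replicate per 1000000 nuclear counts (x axis, log scale) for the 22 mitochondrial genes with a mean of at least 100 counts, with 18 nuclear pathway genes on the bottom line. The dashed line marks a ratio of 2, passed by 17 mitochondrial genes, by 0 pathway genes and by 7.02% of all nuclear genes with the same minimum, and the dotted line marks the nuclear median of 1.28.

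Mitochondrial RNA is made and processed by proteins from nuclear genes, and a list of 42 such genes was followed beside the members. It covers transcription and replication of the mitochondrial genome, tRNA excision, mRNA stability and polyadenylation, and decay. Of these, 18 had a mean of at least 100 counts and 0 exceeded a ratio of 2, with a median ratio of 1.23 and a range of 1.06 to 1.84. Of all nuclear genes with this minimum 7.02% exceeded 2, with a median of 1.28, so nothing particular to the list is read from its count. TFAM, which packages mitochondrial DNA and activates its transcription, had 3858, 3757 and 3586 counts. LRPPRC, which stabilises mitochondrial mRNAs, had 1726, 1441 and 1861 counts. MTPAP, the mitochondrial poly(A) polymerase, had 1133, 995 and 1064 counts. These genes had ratios of 1.12, 1.21 and 1.06, whereas others of the list were lowest in replicate 3. PNPT1, a nuclease of mitochondrial RNA decay, had 1097, 1065 and 667 counts, a ratio of 1.71. FASTKD5, which acts on mRNA ends that no tRNA borders, had 2976, 2612 and 1891 counts, a ratio of 1.57. The highest ratios of the 18 were those of ELAC2, which cuts the 3′ ends of tRNAs, at 1.84 with 155, 118 and 84 counts, and of GRSF1, an RNA-binding protein, at 1.78 with 455, 543 and 326 counts, both named after their values were seen. By TPM the highest of the list were TRMT10C at 309 ± 107, a subunit of the RNase P that cuts the 5′ ends of tRNAs, and FASTKD5 at 190 ± 78.3 (SD, n = 3). A further 17 genes of the list had a mean under 10 counts, and 16 of them have several listed transcripts, so a low count there does not show a low level.

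Parts of the mitochondrial genome have been copied into the chromosomes, and reads can align to such copies as well as to the members. The 404 annotated copies took 2687, 1288 and 26714 counts, which equals 0.399%, 0.361% and 1.21% of the mitochondrial counts, or 0.658% ± 0.482 (SD, n = 3) and 0.380% without replicate 3. MTATP6P1, a copy of MT-ATP6 on chromosome 1, had 1203, 473 and 23529 counts. That was 44.8%, 36.7% and 88.1% of all counts on copies, and 1.99%, 2.16% and 8.70% of the counts of MT-ATP6. Per 1000000 nuclear counts its ratio between replicates was 46.5, against 11.5 for MT-ATP6 itself, so the copy rose more than the gene in replicate 3.

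MTATP6P1 (chr1:633696-634376, plus strand) has the same length of 681 bases and differs from MT-ATP6 at 10 of them, an identity of 98.5%. Counted from 1 at the first base of MT-ATP6, with the base of MT-ATP6 first, the last difference is C642T, 39 bases before the end of the gene, and the next are C549T and C534A. A read that lies wholly between neighbouring differences, such as C549T and C642T, or within the last 39 bases cannot tell the gene from its copy. The stretch around C642T is shown for both (hg38, 5′ to 3′), with the differing base in capitals.
MT-ATP6 (chrM:9153-9183): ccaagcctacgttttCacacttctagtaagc
MTATP6P1 (chr1:634322-634352): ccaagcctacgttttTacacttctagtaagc

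The other copies differed in how steady their share of the counts of the member was. MTCO2P2 had 0.206%, 0.209% and 0.205% of the counts of MT-CO2, and MTND4P12 had 0.325%, 0.426% and 0.300% of those of MT-ND4. MTND2P28 had 592, 266 and 816 counts, or 2.47%, 2.46% and 0.957% of those of MT-ND2. MTND6P3 went the other way from its member, with 171, 215 and 57 counts against 2764, 1194 and 8349 for MT-ND6, and was the least in replicate 3. Among the 8 highest copies, the counts reached at most 18.0% of those of the member, for MTND6P3 in replicate 2. Whether reads on copies came from the mitochondrial genes was not tested.

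**Figure D5:**
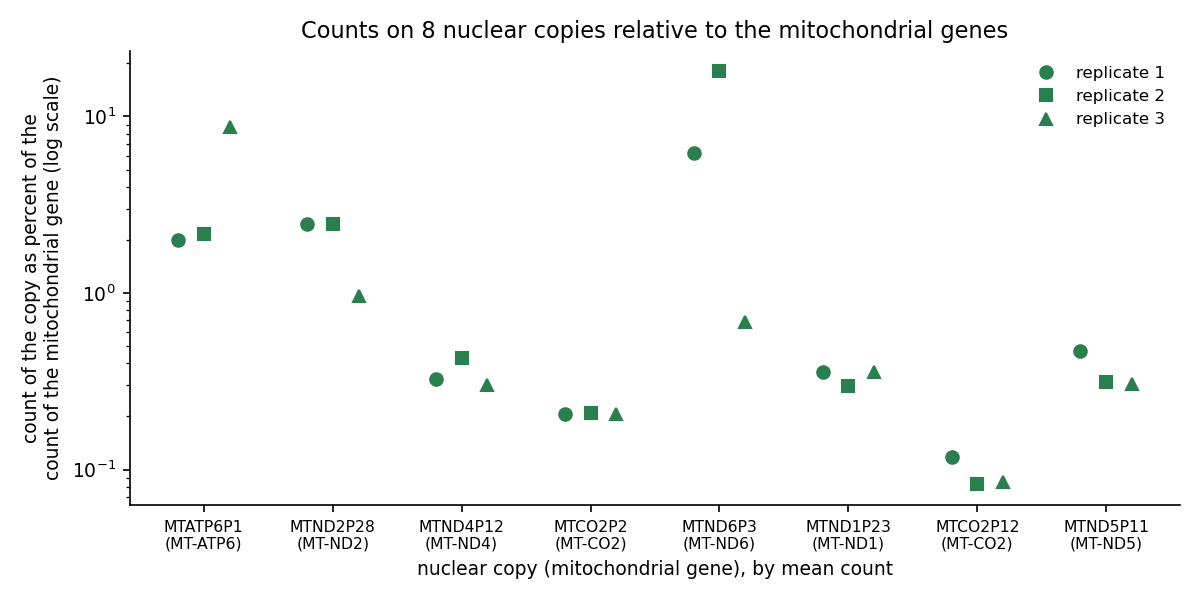
Counts of the 8 nuclear copies with the highest mean count as percent of the counts of the mitochondrial gene each resembles (y axis, log scale), with 1 marker per replicate. MTATP6P1 rises to 8.70% in replicate 3 and MTND6P3 falls to 0.683% there, while MTCO2P2 stays between 0.205% and 0.209%.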

How the data were processed

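The authors deposited 1 table per replicate of HEK293T, with the count, the length in bases and the TPM of each of 247541 Ensembl transcripts. Per the submitters' processing notes, Trimmomatic 0.38.0, HISAT2 2.2.1, featureCounts (listed as 2.2.1) and hg38 were used. The deposited counts are whole numbers without normalization. The deposited TPM is the count divided by the deposited transcript length and rescaled to 1000000, as checked by recomputation (largest relative difference 9.68e-15). In 3′ libraries this division lowers long genes relative to short ones. Mitochondrial genes made up 22.8%, 15.4% and 44.2% of the TPM total in replicates 1, 2 and 3. A high share lowers the TPM of every gene in that replicate, so the SD of TPM is not the spread relative to nuclear counts. Strand and the treatment of reads on several transcripts are not given in the sources used here.

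Transcripts were matched without version to GENCODE 44, 223558 of 247541 matched, and their values were summed per gene. Values are means ± SD over the replicates (n = 3). With 1 condition no statistical test was made. The methods of the study call the replicates biological and independent, without naming separate cultures. Members and lists were chosen with earlier results of these data known. Values are given for every rRNA and mRNA gene, for tRNA genes with a mean of at least 100 counts, for up to 5 highest and lowest other tRNA genes, for up to 8 nuclear copies and for the leading pathway genes. The code that computes the ratios was checked on simulated counts with known changes, which bears on the code and not on the replicates. Alternatives were TPM, the median, other divisors, count minimums, a pseudocount of 1, rRNA genes left out, copies added and each replicate left out. Python 3.11.15, numpy 2.4.6, pandas 2.3.3, scipy 1.17.1 and matplotlib 3.10.9 were used.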

Additional observations from a re-analysis of the deposited data

How the results depend on the processing

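No paired analysis was possible because a single condition was measured. For 9 results, 62 alternatives were computed, and 53 moved the value by less than 1 SD of the replicates or, for the count of genes, by less than 1.5 times. With 3 replicates, neither the median nor leaving a replicate out can move a mean share by 1 SD. For the shares, those settings were therefore bound to fall among the 53 and do not show that a result is robust. With deposited TPM in place of counts, the mitochondrial share was 27.5% of the total and not 13.7%, the rRNA genes held 14.6%, the tRNA genes 14.8% and the light-strand genes 7.21% of the mitochondrial total, and tRNA genes directly after an mRNA or rRNA gene held 11.7% of the tRNA total. With rRNA genes left out of the total, the mRNA genes held 97.5% and the light-strand genes 1.65%. The number of members with a ratio above 2 was 10 with mitochondrial counts as the divisor. It was 7 to 17 when each replicate was left out in turn, with the 7 found without replicate 3. The share of nuclear genes is not given for these settings. Without replicate 3 the mitochondrial share was 7.65% of all counts. The precision of 10 tRNA genes was limited by means under 10 counts. Levels of short and long genes depend on the division by length, and transcription, stability and priming cannot be told apart in these counts.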
